A study of Mus musculus with 4 samples.

Results

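The genes described here are Msh3, Msh6, Pms2 and Exo1 of DNA mismatch repair and Rbbp8, Brca1 and Brca2 of homologous recombination. They were taken by symbol because both processes are tied to H3K36me3, and they are 7 of the 24087 genes in the expression table of splenic regulatory T (Treg) cells. The Treg cells were sorted as CD3+CD4+YFP+ from spleens at steady state. KO cells came from Foxp3Cre-YFPSetd2f/f mice and CTRL cells from littermates of the genotype Foxp3Cre-YFPSetd2f/+, so all mice carried the Cre-YFP allele of Foxp3 and at least 1 floxed Setd2 allele, on the C57BL/6 strain. The Cre is made in Foxp3-expressing cells and leaves Setd2 intact elsewhere in the mouse. Each genotype had 2 libraries (CTRL 1, CTRL 2, KO 1 and KO 2), each from the cells of 2 pooled mice, and the labels gave no age.

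Setd2 is the methyltransferase that trimethylates lysine 36 of histone H3, a mark found over the bodies of transcribed genes. Msh6 carries a PWWP domain that binds this mark, and the mark also draws the reader LEDGF (Psip1), which brings CtIP, the product of Rbbp8, to broken DNA. In mismatch repair, Msh6 serves in the complex that finds base mismatches and small loops and Msh3 in the complex that finds larger loops, Pms2 cuts the strand, and Exo1 removes it. In homologous recombination, CtIP begins the resection of broken ends, Brca1 with Bard1 favours resection and recruits Palb2, and Brca2 prepares the single strands for exchange with the intact copy. Many of these genes are transcribed most in cells that enter S phase, since the replicated copy serves as the template for recombination.

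All 7 genes were detected in all 4 libraries, and none was called higher or lower in KO. With limma on log2(FPKM + 1), 0 of 7 passed an adjusted p under 0.05 in either direction, where FPKM is a fragment count divided by the length of the gene and the size of the library. Among the 11399 genes tested, 5.10% passed as higher and 4.65% as lower in KO. At an unadjusted p under 0.05 there were 2 of the 7, Brca1 and Rbbp8, beside 34.7% of all genes tested. The homologous recombination genes and Exo1 were at their highest levels in KO libraries, with Brca1 showing the largest log2 fold change of the 7 (0.43), whereas Msh6, Msh3 and Pms2 had log2 fold changes between -0.13 and -0.01. When the reads behind the FPKM were recovered and tested with limma-voom, 1 of 7 passed, which was Brca1 (adjusted p 0.0181), beside 16.7% of all genes tested.

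The libraries were of similar depth, with at least 29778029 to 32507754 reads behind the values. CTRL 1 had 19100 genes above 0 at the lowest depth, and the other libraries had 15913 to 16410. Without CTRL 1 the log2 fold changes were 0.43 for Brca1, 0.46 for Rbbp8, 0.29 for Brca2, 0.26 for Exo1, 0.05 for Msh6, -0.07 for Msh3 and -0.13 for Pms2. The labelled cell type was checked by its markers. Summed FPKM of 6 Treg markers was 1107 to 1183 in CTRL and 1126 to 1214 in KO, and that of 6 T cell markers 1713 to 1768 in CTRL and 1640 to 1692 in KO. Of the Treg markers, Foxp3, Il2ra and Ikzf4 were lower in both KO libraries, an arrangement of 35.5% of all genes tested. Ikzf2 was higher in both, as were 29.0% of all genes tested, and the groups overlapped for Ctla4 and Tnfrsf18. Of the CD8 markers, Cd8a was at 0.156 to 0.326 FPKM in the 4 libraries, whereas Cd8b1 was at 8.33 and 11.2 FPKM in CTRL libraries and at 10.3 and 11.1 FPKM in KO libraries. Markers of myeloid cells (6 genes, summed FPKM 207.5 and 131.4 in CTRL, 246.2 and 105.6 in KO) and of erythroid cells (5 genes in the table, 22.7 and 4.16 in CTRL, 38.5 and 11.4 in KO) were higher in replicate 1 of both genotypes. Summed B cell markers (6 genes) were at 23.6 and 19.2 FPKM in CTRL against 34.6 and 19.2 FPKM in KO. No marker list had a gene at 0 in all libraries or a gene past the threshold. The targeted gene Setd2 was at 23.4 and 25.3 FPKM in CTRL against 21.3 and 19.5 FPKM in KO, over the whole gene including exons outside the floxed part (log2 fold change -0.24, SE 0.076, limma adjusted p 0.0970). CTRL Treg cells also carry a floxed allele that the Cre can delete, so CTRL is not wild type for Setd2. The authors reported loss of Setd2 protein and much lower H3K36me3 in splenic KO Treg cells.

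Msh6, the mismatch recognition protein that reads H3K36me3, was the most abundant of the 7. Msh6 (ENSMUSG00000005370, GRCm38 chr17:87975062-87990892, plus strand, 11 exon blocks) was at 19.2 and 17.5 FPKM in CTRL against 17.8 and 18.4 FPKM in KO. The KO values lay inside the CTRL range, and the gap between the CTRL libraries (0.13 on the log2 scale of FPKM) was wider than the difference between the genotypes. Its mean was 18.3 ± 1.20 FPKM in CTRL and 18.1 ± 0.461 FPKM in KO (SD, n = 2 per group). The log2 fold change was -0.01 (SE 0.073, 95% interval -0.20 to 0.17, limma adjusted p 0.909), and its sign turned under median-ratio scaling (0.009), under quantile normalization (0.010) and without CTRL 1 (0.049) or KO 1 (0.010). The 3' end of Msh6 overlaps Fbxo11 on the other strand (36.8 and 35.0 FPKM in CTRL, 32.7 and 33.9 FPKM in KO), and as no source gave the strand setting of the counting, their reads may not have been separated.

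Msh3, the recognition protein for larger loops, was the second most abundant of the 7. Msh3 (ENSMUSG00000014850, chr13:92211872-92355003, minus strand, 27 exon blocks) stood at 10.6 and 10.0 FPKM in CTRL against 9.33 and 9.61 FPKM in KO. Neither KO value reached the CTRL range, but the difference was not larger than the spread by the test. Means were 10.3 ± 0.406 FPKM in CTRL and 9.47 ± 0.199 FPKM in KO (SD, n = 2 per group). The fold change was -0.11 on the log2 scale (SE 0.072, 95% interval -0.29 to 0.08, limma adjusted p 0.336). After each library's trend with exon length was removed, the fold change was -0.02. The start of Msh3 overlaps a gene on the other strand, so its value is uncertain for the same reason as that of Msh6.

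Pms2, which holds the nuclease site of its repair complex, was lower in both KO libraries but did not pass the threshold. Pms2 (ENSMUSG00000079109, chr5:143909964-143933968, plus strand, 15 exon blocks) was at 8.18 and 8.22 FPKM in CTRL against 7.16 and 7.69 FPKM in KO. The CTRL libraries were nearly equal, and the KO libraries lay under them and 0.10 apart on the log2 scale of FPKM. Its mean was 8.20 ± 0.0221 FPKM in CTRL and 7.42 ± 0.379 FPKM in KO (SD, n = 2 per group). The log2 fold change was -0.13 (SE 0.077, 95% interval -0.32 to 0.07, limma adjusted p 0.296). Of the 100-base stretches of its longest transcript, 3.29% also occur in another gene, so a small share of its reads could have been assigned elsewhere.

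Exo1, the exonuclease that removes the mismatched strand and also extends resection, was the least abundant of the 7. Exo1 (ENSMUSG00000039748, chr1:175880581-175913489, plus strand, 17 exon blocks) was at 0.919 and 0.834 FPKM in CTRL against 1.17 and 1.23 FPKM in KO, from at least 166, 159, 228 and 240 reads. Each KO library exceeded each CTRL library, but the gene passed the filter of 1 FPKM in 2 libraries only through the KO libraries, so it could be tested only because it was higher there. Means were 0.876 ± 0.0603 FPKM in CTRL and 1.20 ± 0.0399 FPKM in KO (SD, n = 2 per group), a ratio of 1.37. On the log2(FPKM + 1) scale, which shrinks differences of weak genes, the fold change was 0.23 (SE 0.13, limma adjusted p 0.257), and on the scale of reads it was 0.45 (limma-voom adjusted p 0.0926). The counting error of its lowest value was 7.93%, against 1.97% for Msh6.

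Rbbp8, which encodes the resection factor CtIP, had the second largest difference. Rbbp8 (ENSMUSG00000041238, chr18:11633276-11745221, plus strand, 20 exon blocks) was at 6.45 and 5.59 FPKM in CTRL against 8.86 and 7.36 FPKM in KO. The lower KO library was above the higher CTRL library, and within each genotype replicate 1 was the higher library, by 0.21 in CTRL and 0.27 in KO on the log2 scale of FPKM. The mean of 6.02 ± 0.607 FPKM in CTRL compared with 8.11 ± 1.06 FPKM in KO (SD, n = 2 per group), a ratio of 1.35. The log2 fold change was 0.38 (SE 0.12, 95% interval 0.07 to 0.68), with an unadjusted p of 0.0246 and an adjusted p of 0.0978 by limma. Leaving out KO 1 gave 0.26 and leaving out KO 2 gave 0.49, so the size of the difference varied with the KO library. Myeloid and erythroid markers were also higher in replicate 1 of both genotypes, and their part in the spread of Rbbp8 was not tested.

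Brca1, the ubiquitin ligase that promotes resection, showed the largest difference and the smallest spread. Brca1 (ENSMUSG00000017146, chr11:101488764-101551955, minus strand, 24 exon blocks) was at 2.01 and 2.00 FPKM in CTRL against 3.02 and 3.09 FPKM in KO, from at least 438, 461, 709 and 729 reads. Replicates differed by at most 0.03 on the log2 scale of FPKM, and the genotypes did not overlap. Its mean was 2.00 ± 0.00454 FPKM in CTRL and 3.06 ± 0.0508 FPKM in KO (SD, n = 2 per group), a ratio of 1.52. The fold change was 0.43 on the log2(FPKM + 1) scale (SE 0.099, 95% interval 0.18 to 0.69, limma adjusted p 0.0558), just short of the threshold. On the scale of reads it was 0.60 (95% interval 0.36 to 0.84, limma-voom adjusted p 0.0181). Over the 10 alternative settings that kept all libraries and tested it, the adjusted p of Brca1 ranged from 0.0181 to 0.135, and it was under 0.05 in 2 of them, limma-voom and limma without the variance trend (0.0461).

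Brca2, which acts on resected ends, was at a lower level still. Brca2 (ENSMUSG00000041147, chr5:150522630-150570329, plus strand, 28 exon blocks) was at 1.38 and 1.14 FPKM in CTRL against 1.63 and 1.59 FPKM in KO. The groups were separate, with a wider gap between the CTRL libraries (0.27 on the log2 scale of FPKM) than between the KO libraries (0.04). The mean was 1.26 ± 0.168 FPKM in CTRL and 1.61 ± 0.0328 FPKM in KO (SD, n = 2 per group). Its log2 fold change was 0.21 (SE 0.12, 95% interval -0.11 to 0.53, limma adjusted p 0.285), and 0.36 on the scale of reads (limma-voom adjusted p 0.0950).

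**Figure D1:**
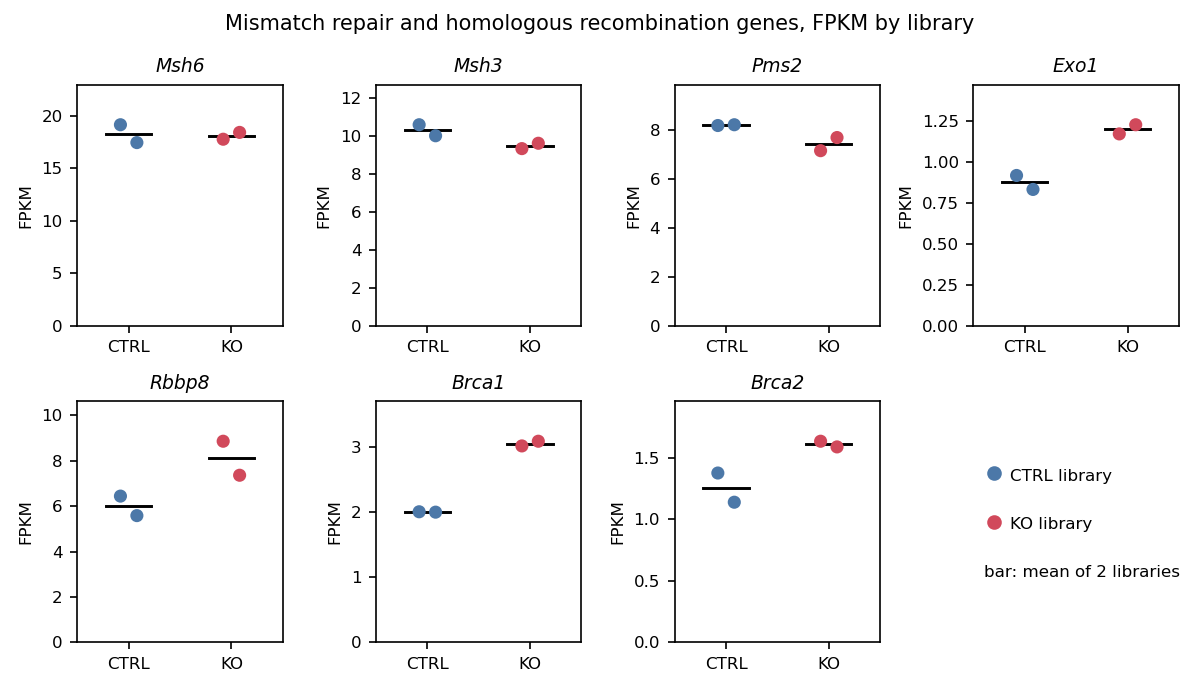
FPKM of each of the 7 genes in each library, with CTRL libraries in blue and KO libraries in red and a bar at the mean of 2 libraries; each axis starts at 0. Exo1, Rbbp8, Brca1 and Brca2 have both red points above the blue points, Msh3 and Pms2 have them below, and the points of Msh6 interleave.

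Exo1, Rbbp8, Brca1 and Brca2 thus had each KO library above each CTRL library, which is 4 of the 7 genes, beside 29.0% of all genes tested. Msh3 and Pms2 had the opposite arrangement, 2 of the 7 genes, beside 35.5% of all genes tested. The median log2 fold change of the 7 was 0.21, beside -0.02 over all genes tested, and 1 of the 4 higher genes, Exo1, entered the test only through its KO values. With 2 libraries of pooled cells per genotype, p-values rest only on the spread between these libraries. In limma, the spread of each gene is also moderated by that of all genes tested. In bulk RNA, a larger share of cells that express a gene and more RNA of it per cell cannot be told apart.

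**Figure D2:**
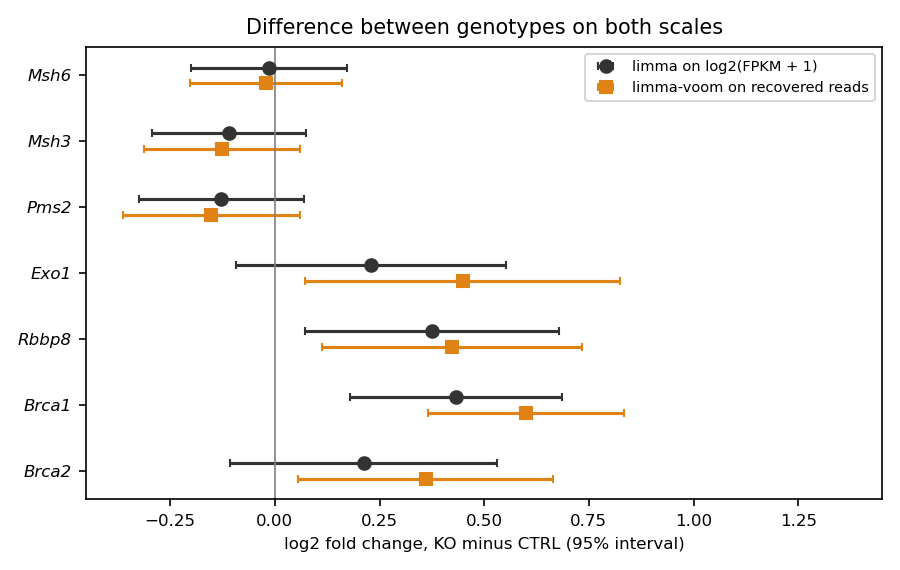
Log2 fold change of KO against CTRL for each gene, with 95% intervals, from limma on log2(FPKM + 1) (black circles) and from limma-voom on the recovered reads (orange squares). The intervals of Rbbp8 and Brca1 lie above 0 on both scales, those of Exo1 and Brca2 only on the scale of reads, and those of Msh6, Msh3 and Pms2 include 0 on both.

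FPKM is scaled by gene length, so levels can be compared between genes. In CTRL the order of mean FPKM was Msh6, Msh3, Pms2, Rbbp8, Brca1, Brca2 and Exo1, and the ranges of neighbours did not overlap in this order. In KO, Rbbp8 (7.36 to 8.86 FPKM) was no longer below Pms2 (7.16 to 7.69 FPKM), and their ranges overlapped. By the mean over all libraries, Msh6 stood at percentile 61.4 of all genes tested and Msh3 at percentile 43.4, whereas Brca1 stood at percentile 14.0, Brca2 at 6.2 and Exo1 at 2.0. The mismatch recognition genes were therefore of middling abundance and the genes of recombination and resection, other than Rbbp8 (percentile 34.1), were among the weakly expressed genes.

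Upstream sequence of Msh6, Brca1 and Brca2 is shown because these genes had the smallest difference, the largest difference and a motif of a cell-cycle factor family. Of the 7 genes, 5 had a promoter in the RefSeq table (GRCm38.p6), and the 250 bases before each start were searched on both strands. The letters searched were those of E2F sites (TTTCCCGC, TTTGGCGC, TTTCGCGC and TTTGCCGC, found in 1.86% of 32841 promoters), the CCAAT box (33.9%) and TTTGAA (16.0%). The sequences run 5′ to 3′ on the strand of the gene, without annotated exons of other genes, and capitals mark a match on either strand, which is CCAAT in Msh6 (opposite strand, ATTGG as read) and Brca1, and TTTCCCGC in Brca2 (opposite strand, GCGGGAAA as read).
Msh6 (chr17:87974800-87975049, plus strand): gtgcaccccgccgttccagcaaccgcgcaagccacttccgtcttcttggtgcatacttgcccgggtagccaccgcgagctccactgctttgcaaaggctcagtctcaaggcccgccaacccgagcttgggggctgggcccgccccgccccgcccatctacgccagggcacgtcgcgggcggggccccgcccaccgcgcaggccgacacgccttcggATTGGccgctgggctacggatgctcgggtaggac
Brca1 (chr11:101551956-101552148, minus strand): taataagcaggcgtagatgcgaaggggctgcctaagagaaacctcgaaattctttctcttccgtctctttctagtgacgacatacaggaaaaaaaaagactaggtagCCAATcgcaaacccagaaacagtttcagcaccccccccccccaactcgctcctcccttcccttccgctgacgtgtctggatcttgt
Brca2 (chr5:150522371-150522620, plus strand): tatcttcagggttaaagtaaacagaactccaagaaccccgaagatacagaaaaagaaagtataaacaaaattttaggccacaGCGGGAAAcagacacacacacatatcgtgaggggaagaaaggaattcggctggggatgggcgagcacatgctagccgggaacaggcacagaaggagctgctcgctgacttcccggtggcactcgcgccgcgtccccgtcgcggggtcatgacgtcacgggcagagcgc

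The CCAAT match of Brca1 lay 86 bases before its start and that of Msh6 34 bases before. The E2F letters of Brca2 lay 168 bases before its start. Msh3 also held E2F letters, in a window that lies in an annotated exon and is not shown. Pms2 had 3 CCAAT matches, at 153, 108 and 33 bases before its RefSeq start. That window overlaps an annotated exon of Pms2 and is not shown, and the match at 33 lies inside Pms2 by its GENCODE start. TTTGAA was in none of the 5 windows. Exo1 and Rbbp8 were not searched. E2F letters thus stood before Brca2, whose values were higher in KO, and before Msh3, whose values were lower. A match of letters is a description of the sequence and not a measured site.

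Levels of partner genes were read next, as ratios within a library. The ratio of Msh6 to Msh3 was 1.81 and 1.74 in CTRL and 1.90 and 1.92 in KO, higher in both KO libraries by 0.10 on the log2 scale. An exact permutation test over 4 libraries cannot give a two-sided p below 0.333, the value it gave here (0.417 adjusted by Benjamini-Hochberg over the 5 ratios computed).

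Mlh3 and Pms1, which are related to Pms2 in mismatch repair, did not pass the threshold. Mlh3, which serves mainly in meiosis, was at 3.97 and 3.85 FPKM in CTRL against 2.91 and 3.43 FPKM in KO (log2 fold change -0.24, limma adjusted p 0.187). Pms1, whose role in repair is minor, was at 6.21 and 6.40 FPKM in CTRL against 5.59 and 6.19 FPKM in KO (log2 fold change -0.09, limma adjusted p 0.528). Of 19 other mismatch repair genes, all tested, 2 rose and 1 fell, and 16 did not pass, with a median log2 fold change of 0.12. Over all genes tested, the shares were 5.10% and 4.65%, and the median was -0.02. Rpa2, a subunit of the single-strand binding protein RPA, rose from 17.7 and 17.2 FPKM to 26.1 and 26.9 FPKM (log2 fold change 0.57, SE 0.060, adjusted p 0.0306). Lig1, the replicative DNA ligase, rose from 19.0 and 14.7 FPKM to 25.5 and 28.4 FPKM (log2 fold change 0.65, SE 0.13, adjusted p 0.0466). Lig1 overlaps Zswim9 on the other strand, and its fold change was 0.48 to 0.82 when 1 library was left out.

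Bard1 and Palb2 bind Brca1, and neither passed the threshold. Bard1, the obligate partner of Brca1, was at 1.88 and 1.76 FPKM in CTRL against 2.46 and 2.28 FPKM in KO (log2 fold change 0.26, limma adjusted p 0.168). The ratio of Bard1 to Brca1 was 0.936 and 0.879 in CTRL and 0.814 and 0.736 in KO, lower by 0.23 on the log2 scale. Palb2, the bridge between Brca1 and Brca2, was at 2.16 and 1.47 FPKM in CTRL against 1.89 and 1.59 FPKM in KO, with overlapping groups (log2 fold change -0.03, limma adjusted p 0.913). The ratio of Palb2 to Brca2 was 1.57 and 1.29 in CTRL and 1.16 and 1.00 in KO. Both ratios were lower in each KO library, with an exact permutation p of 0.333 (0.417 adjusted), the smallest possible.

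**Figure D3:**
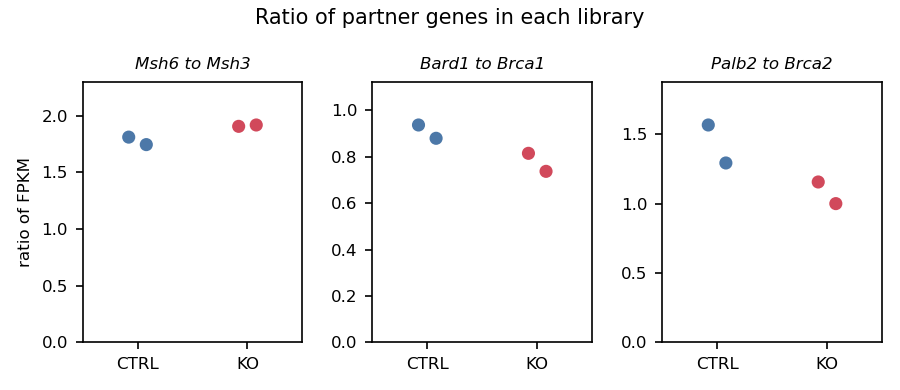
Ratio of the FPKM of partner genes in each library, with CTRL in blue and KO in red and each axis starting at 0. The ratio of Msh6 to Msh3 is higher in both KO libraries, and the ratios of Bard1 to Brca1 and of Palb2 to Brca2 are lower in both.

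Around resection and strand exchange, most genes showed no difference past the threshold. Mre11a, the nuclease of the complex that works with CtIP, was at 9.85 and 9.93 FPKM in CTRL against 9.79 and 9.76 FPKM in KO. The other subunits of that complex, Rad50 (log2 fold change 0.06, limma adjusted p 0.685) and Nbn (-0.14, adjusted p 0.238), did not pass either. Psip1, which encodes the H3K36me3 reader LEDGF, was at 46.5 and 43.6 FPKM in CTRL against 43.8 and 45.3 FPKM in KO, interleaved between genotypes (log2 fold change -0.02, adjusted p 0.874). Mre11a overlaps Ankrd49 and Psip1 overlaps Snapc3, each on the other strand. Brip1, the helicase that binds Brca1, was at 1.30 and 0.983 FPKM in CTRL against 1.93 and 1.95 FPKM in KO (log2 fold change 0.46, limma adjusted p 0.0814, and 0.0274 by limma-voom on reads). Brip1 lay above CTRL in each KO library, an arrangement that 29.0% of all genes tested had. Its value in CTRL 2 was under 1 FPKM, so it passed the filter of 1 FPKM in 2 libraries only with its KO values.

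Of 42 other homologous recombination genes, 41 were tested, 4 rose and 3 fell, with a median log2 fold change of 0.05. Over all genes tested, 5.10% rose and 4.65% fell. Abraxas1, the scaffold of an assembly that binds Brca1, fell from 9.53 and 7.96 FPKM to 5.42 and 5.33 FPKM (log2 fold change -0.61, SE 0.10, limma adjusted p 0.0397). Babam1, another subunit, rose from 49.2 and 52.9 FPKM to 62.1 and 65.8 FPKM (0.32, SE 0.065, adjusted p 0.0480). Babam2, which binds Babam1, rose from 35.1 and 36.1 FPKM to 45.1 and 47.5 FPKM (0.37, SE 0.059, adjusted p 0.0378). These 3 subunits of the same assembly thus did not move in the same direction. Uimc1 and Brcc3, its remaining subunits, had fold changes of -0.18 (limma adjusted p 0.117) and -0.15 (0.298) on the log2 scale, and were named after their values were seen.

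The other genes past the threshold act in strand exchange or signal breaks. Rad51b, a strand exchange factor, rose from 1.13 and 1.20 FPKM to 2.23 and 2.31 FPKM (log2 fold change 0.59, SE 0.11, limma adjusted p 0.0429). Sfr1, which with Swi5 stabilises strand exchange filaments, rose from 72.1 and 81.1 FPKM to 103.5 and 100.4 FPKM (0.41, SE 0.074, adjusted p 0.0410). Both rose in each KO library. Bccip, a Brca2-binding protein, fell from 30.2 and 30.2 FPKM to 22.2 and 24.3 FPKM (-0.37, SE 0.068, adjusted p 0.0422) and overlaps Uros and Dhx32 on the other strand. Atm, the kinase that signals double-strand breaks, fell from 10.6 and 10.7 FPKM to 7.25 and 7.84 FPKM (-0.44, SE 0.076, adjusted p 0.0395). Over the alternative settings, Abraxas1 passed in 10 of 11, Bccip, Atm and Babam2 in 9 of 11, Sfr1 and Babam1 in 7 of 11 and Rad51b in 7 of 10.

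In competing and connected pathways no gene passed the threshold by limma, beside 5.10% of all genes tested as higher and 4.65% as lower. Of 17 genes of non-homologous end joining, the route that seals broken ends without a template, 0 rose and 0 fell by limma, with a median log2 fold change of -0.09. An unadjusted p under 0.05 was found for 1 higher and 5 lower genes, beside 34.7% of all genes tested in either direction. Limma-voom on the reads called 4 of them lower, which were Prkdc, Lig4, Trp53bp1 and Rif1, beside 16.7% of all genes tested in either direction. Trp53bp1 and Rif1 are known to oppose resection. Other genes of the list, Mad2l2 (log2 fold change 0.001), Shld1 (-0.04) and Shld2 (-0.23), passed by neither limma nor limma-voom. Trp53bp1 was at 14.6 and 14.7 FPKM in CTRL against 12.3 and 12.7 FPKM in KO (limma-voom adjusted p 0.0448, limma adjusted p 0.0878). Rif1 was at 13.8 and 13.1 FPKM in CTRL against 10.7 and 11.1 FPKM in KO (limma-voom adjusted p 0.0303, limma adjusted p 0.0644). Of 15 genes of the Fanconi anaemia pathway, which repairs crosslinks with the help of Brca1 and Brca2, 0 rose and 0 fell by limma. Their median log2 fold change was 0.06. At an unadjusted p under 0.05, 2 were higher and 0 lower, beside 34.7% of all genes tested in either direction. By limma-voom 1 of them passed as higher, beside 16.7% of all genes tested in either direction. It was Fancc (2.37 and 2.08 FPKM in CTRL, 3.04 and 3.82 FPKM in KO, limma-voom adjusted p 0.0487, limma adjusted p 0.0835), which overlaps a gene and several microRNA genes on either strand.

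**Figure D4:**
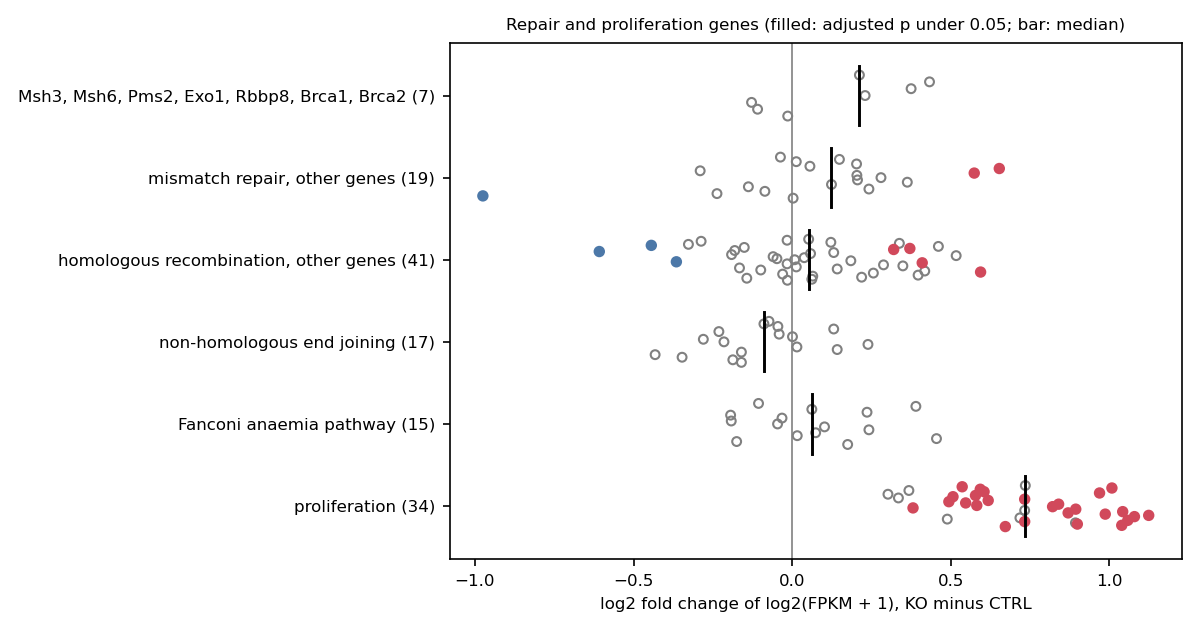
Log2 fold change on the log2(FPKM + 1) scale for the 7 genes and for the tested genes of 5 lists, with the number of genes in parentheses, filled points for adjusted p under 0.05 (red higher, blue lower in KO) and a black bar at the median. The 7 genes and the repair lists lie on both sides of 0 with medians from -0.09 to 0.21, whereas all 34 proliferation genes lie above 0 with a median of 0.73.

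Proliferation genes moved in the same comparison. Of 34 genes of replication and mitosis, 26 rose and 0 fell by limma, beside 5.10% and 4.65% of all genes tested. The median log2 fold change of the 34 was 0.73, beside -0.02 over all genes tested. The summed FPKM of the 34 was 665.7 and 542.7 in CTRL and 1028 and 1020 in KO, so that each KO library exceeded each CTRL library. Mki67, which encodes the proliferation marker Ki-67, rose from 31.8 and 24.3 FPKM to 45.1 and 44.7 FPKM (log2 fold change 0.67, SE 0.13, adjusted p 0.0433). The levels of Exo1, Rbbp8, Brca1 and Brca2 were higher in the same 2 libraries as this sum. In CTRL, both the sum and the values of Exo1, Rbbp8 and Brca2 were higher in CTRL 1 than in CTRL 2. Msh6 and Msh3, which were not higher in KO, were also higher in CTRL 1. Brca1 and Pms2 were at nearly the same level in both CTRL libraries. In KO the sum was nearly equal, while Rbbp8 and Brca2 were higher in KO 1 and Exo1 and Brca1 were higher in KO 2. The part of proliferation in the differences of the repair genes was not tested.

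The genes whose profiles over the 4 libraries were nearest to those of the highest and the lowest of the 7 were then listed, by root mean square distance of centred log2(FPKM + 1). Near to Brca1 was Dok1, an adaptor of tyrosine kinase signalling (distance 0.00365). Dok1 was at 18.7 and 18.7 FPKM in CTRL against 25.2 and 25.8 FPKM in KO. Nearest to Pms2 were Ankfy1, an endosomal protein (0.00415), Eif4ebp3, an inhibitor of translation initiation (0.00417), and Ss18, a chromatin remodelling subunit (0.00564). Distances over 4 libraries describe only the shape of these values.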

How the data were processed

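The authors mapped reads from oligo(dT)-selected RNA to mm10 (GRCm38) with HISAT2 (version 2.2.1), counted them per gene with featureCounts (2.0.1), and deposited FPKM values for 24087 genes in 4 libraries. The authors tested their own counts with edgeR (3.34.0). Gene lengths and the use of strand were not given in the sources used here. The control columns, named WT, were read as the CTRL libraries with the same numbers. Columns of other samples numbered 0.

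KO was compared with CTRL by limma (3.58.1, R 4.3.3; lmFit and eBayes with an intensity trend, two-sided) on log2(FPKM + 1), over the 11399 genes that reached 1 FPKM in 2 or more libraries, with Benjamini-Hochberg adjustment over all genes tested and a threshold of 0.05. Whole reads were recovered from the whole-number ratios of a gene's FPKM between libraries in 99.99% of 19888 genes above 0, as lower bounds, and tested with limma-voom. Ratios of partners were tested by exact permutation. Positions came from GENCODE vM21, and promoters from RefSeq. Python 3.11.15, numpy 2.4.6, pandas 2.3.3 and scipy 1.17.1 were used for the rest.

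The 7 genes, the lists and the tests were chosen with earlier results of these data known. The text names the 7 genes, Setd2, list genes past the threshold (at most 10 a list), the partners, Mki67 and the 3 genes nearest in profile to the highest and the lowest of the 7. Several genes that this rule names are not reported here and remain in the counts, the tests and the adjustment of p. Alternatives were a pseudocount of 0.1, 2 other filters (all genes above 0, or mean FPKM above 5 in either group), 3 other scalings, 2 other variance models, a replicate block, removal of the exon length trend, limma-voom, and leaving out each library. On simulated data with a fixed dispersion for all genes, 200 of 24087 genes were shifted by 1 (log2) in 20 simulations. The procedure recovered 97.3% of them, and 11.2% of its calls were false. This shift was larger than the change of any of the 7 genes, so the recovery of changes of their size was not tested.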

Additional observations from a re-analysis of the deposited data

How the results depend on the processing

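The 7 fold changes and the list counts were computed again under 11 settings and without each library in turn. With all genes above 0 tested, 0 genes passed anywhere in the table, so the counts of mismatch repair (0 higher, 0 lower), homologous recombination (0 higher, 0 lower) and proliferation genes (0 higher) all fell to 0. Msh6 changed sign under median-ratio scaling (0.009) and quantile normalization (0.010), and without 1 library ranged from -0.078 to 0.049. Quantile normalization left 1 higher homologous recombination gene and gave 1 higher Fanconi gene. Without the variance trend, Brca1 passed (0.433, adjusted p 0.0461), so 1 of the 7 was higher, and 1 higher mismatch repair gene, 1 higher homologous recombination gene and 17 proliferation genes passed. Removal of the exon length trend left 1 higher mismatch repair and 1 higher homologous recombination gene. With limma-voom, Brca1 passed (0.600, adjusted p 0.0181), so 1 of the 7 was higher, and 4 end joining genes were lower and 1 Fanconi gene higher. In the whole table, 1111 genes passed in the main fit and 1011 under quantile normalization. Without the variance trend 679 passed, after removal of the exon length trend 660, and with limma-voom 1902. The cause of the changes in the list counts and in Brca1 was not tested. With mean FPKM above 5 required, Exo1, Brca1 and Brca2 were not tested.

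The labels tie replicate numbers to no litter or day, and deviations of same-numbered libraries had a Pearson correlation of 0.342 across genes (Spearman 0.055). With the replicate number as a block, 1773 rather than 1111 genes passed, and Rbbp8 was the 1 higher gene of the 7 (0.375, adjusted p 0.0486).

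Without 1 library at most 1 gene passed in the whole table, so the list counts of 0 to 0 there say nothing of stability. Without 1 library, fold changes ranged from 0.42 to 0.45 for Brca1, 0.26 to 0.49 for Rbbp8, 0.20 to 0.26 for Exo1, 0.14 to 0.29 for Brca2, -0.15 to -0.07 for Msh3 and -0.17 to -0.08 for Pms2. Depth limited Exo1 most, at a minimum of 159 reads.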
